A study of Rattus norvegicus with 10 samples.

Results

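The deposited table of this rat lung study lists, besides annotated genes, gene models that carry a running number and no symbol. All 127 such rows were collected by the prefix of their identifier and 3 were set aside by number, which leaves 124 unannotated models of 1319 rows. Each is called here by its running number in the table, such as model 1057. Lung RNA of Sprague Dawley rats (an outbred stock) aged 8 weeks was sequenced, in 5 wild-type (WT) libraries and 5 libraries from rats that lack Cmg2 (Cmg2-KO). Cmg2, also called Antxr2, encodes a transmembrane anthrax toxin receptor that binds basement membrane proteins. The labels give no promoter, Cre line, treatment or pooling, and do not say how Cmg2 was disrupted or whether each library came from a separate animal, so a p-value here reflects only how these libraries vary. The Cmg2 transcript itself was not analysed here and gives no check of the labels.

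Gene models without annotation arise when reads are assembled into transcripts that match no known gene. They can be extensions of a neighbouring gene, long noncoding RNAs, variable segments of antigen receptors, or copies of transposable elements. Endogenous retroviruses belong to the last kind: they are inherited remnants of retroviral infection, and an intact copy encodes Gag (matrix and capsid proteins), Pol (protease, reverse transcriptase, RNase H and integrase) and Env (the envelope protein). The table assigns Pfam protein domains to some of the models, and these were used to order them: 15 models carried a retroviral domain, 7 an immunoglobulin V-set domain, 17 another domain and 85 none. This ordering was made after the table had been seen.

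All values are scaled counts, meaning read counts divided by 1 size factor per library, where 1 read is worth 0.869 to 1.11 scaled counts. Every row of the table has an unadjusted p-value under 0.05 from the authors, so each model had already been selected for a difference between the genotypes, and no count below is free of that selection. The scaled counts of the listed rows summed to 1386578 to 1531531 per library, of which the 124 models made up 1.91% to 2.23%; total depth is unknown. Of 15 lung markers, Sftpb, Scgb1a1 and Fmo2 were listed, at means of 54112, 157447 and 13296 scaled counts in WT, and all 3 were lower in Cmg2-KO (45492, 116928 and 9308). Lists of 8 smooth muscle, 6 mesothelial and 6 B and plasma cell genes had 7 (all lower in Cmg2-KO), 5 (all higher) and 2 (both higher) listed members, while T and NK cell, erythroid, neutrophil and cardiac lists had 0. Cmg2-KO 3 stood apart from the other Cmg2-KO libraries in several models described below.

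Among the 124 models, 59 had a higher mean log2 value in Cmg2-KO and 65 a lower one, with a median log2 difference of -0.31, against 636 higher and 683 lower and a median of -0.15 over all 1319 rows. The typical size of the difference, regardless of sign, was 0.86 on the log2(scaled count + 1) scale for the models, 0.38 for the 999 named genes and 1.02 for the 193 rows with provisional names. The models were low and short: their median level was 35.9 scaled counts against 309 for named genes, and per kb of model 27.6 against 127. Their median length was 1236 bases against 2546 for named genes. A single unspliced block made up 32 of the 124 models (25.8%) and 28 of the named genes (2.80%). The models also varied more within a genotype, with a median SD of 0.52 log2 units against 0.23 in named genes and 0.62 in provisional rows. At a mean level of 5 to 20 scaled counts this SD was 0.67 in models and 0.74 in named genes. At 20 to 100 it was 0.53 and 0.41. The size of the difference was 1.23 and 1.09 at 5 to 20, and 0.82 and 0.67 at 20 to 100. Rows with provisional names had a median length of 1149 bases, and 17.6% of them were a single block.

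No unannotated model passed limma's adjusted threshold of 0.05, which 3 of 1308 rows tested passed (0.229%); the lowest limma adjusted p among the 121 models tested was 0.073. An unadjusted limma p under 0.05 was reached by 106 of the 121 (52 higher, 54 lower), where 79.1% of all rows tested reached it. The other 3 models, model 206, model 1564 and model 2030, were at 0 in every library of one genotype and did not reach the filter of more than 0.5 scaled counts in 5 libraries. edgeR's quasi-likelihood test on recovered reads of 9 libraries also called 0 of the models and 1 row of the table, whereas DESeq2 on the same reads called 4 models (model 1057, model 880, model 1472 and model 1421, all higher) and 51 rows. The authors' deposited table lists an adjusted p under 0.05 for 11 of the 124 models, against 5.46% of all rows, with 8 higher (3.11% of all rows) and 3 lower (2.35% of all rows). The genotypes did not overlap at all in 29 models, where this held for 16.3% of all rows; 15 of the 29 were higher (9.25% of all rows) and 14 lower (7.05% of all rows).

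**Figure D1:**
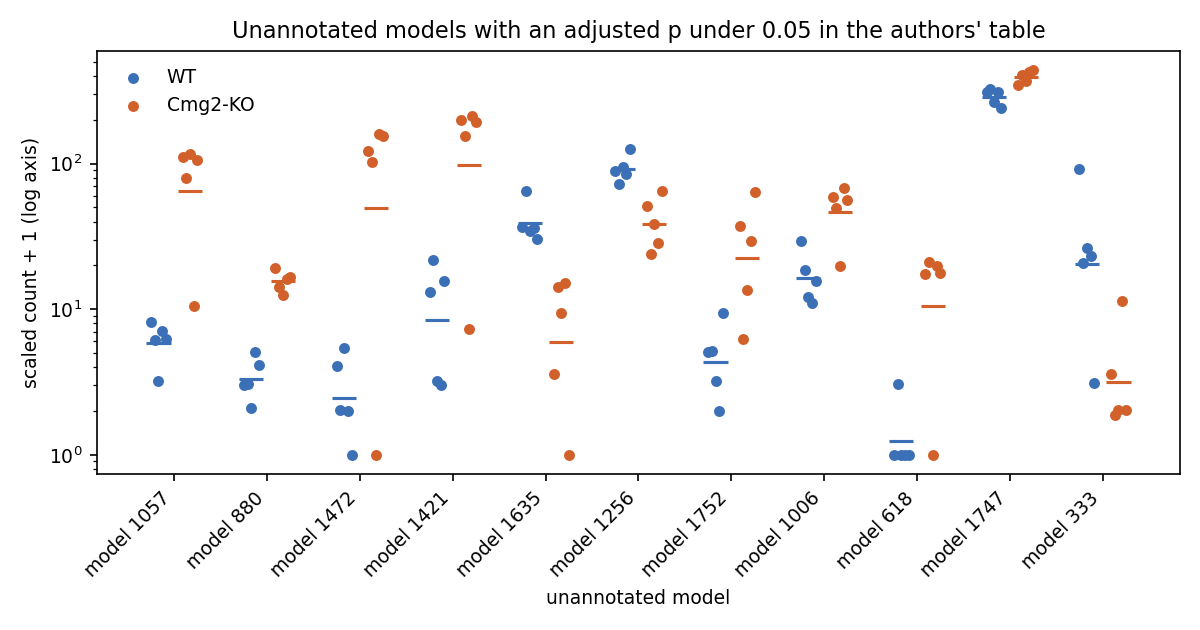
Scaled count + 1 (log axis) of the 11 unannotated models below an adjusted p of 0.05 as listed in the authors' deposited table. Each point is a library, blue for WT and orange for Cmg2-KO, and the bars are geometric means of 5 libraries. A single Cmg2-KO library lies far below the other 4 in model 1057 (Cmg2-KO 4), model 1472, model 1421 and model 618 (Cmg2-KO 3).

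The clearest separation was at model 880, a spliced model of 577 bases on chromosome 19 (28356492 to 28362510, plus strand) with no domain. It had 2.03, 2.07, 1.11, 4.04 and 3.16 scaled counts in WT 1 to 5 and 18.3, 13.2, 11.5, 15.1 and 15.6 in Cmg2-KO 1 to 5. Every Cmg2-KO library was above every WT library, and the log2 fold change was 2.22 ± 0.31 (SE), with an adjusted p from limma of 0.073, and the authors' deposited table gives its adjusted p as 0.00281. Limma without its trend and robust options called this model, with an adjusted p of 0.0223. The span of model 880, introns included, overlapped by 904 bases with that of model 904 on the other strand. How far the exons of the models overlap was not measured. Model 904 showed the same separation at a lower level: 0 to 1.11 scaled counts in WT and 2.64 to 10.4 in Cmg2-KO. Nothing in the labels says that the libraries kept strand. Without strand, reads from any bases where exons of these models overlap cannot be told apart.

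Model 1057, a model of 409 bases on the minus strand of chromosome 2 (192693845 to 192696164), had the lowest adjusted p that the authors' deposited table lists for any of the 124. It stood at 7.11, 5.19, 2.22, 6.07 and 5.26 scaled counts in WT 1 to 5 and at 110, 79.1, 115, 9.45 and 105 in Cmg2-KO 1 to 5. All Cmg2-KO libraries lay above WT, but Cmg2-KO 4 did so by a few reads only. The log2 fold change was 3.46 ± 0.64 (SE), with an adjusted p from limma of 0.259, and the authors' deposited table gives its adjusted p as 1.68e-08. Without Cmg2-KO 4 the log2 fold change was 4.11 (limma adjusted p = 0.0014). That fit was picked because Cmg2-KO 4 was seen to be low in this model, so its p-value is only a description. With any other single library left out, limma did not call model 1057.

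Model 618 has 736 bases and lies on the minus strand of chromosome 14 (111522583 to 111523454). Of the WT libraries, only WT 2 had any read of it, at 2.07 scaled counts. Cmg2-KO 1, 2, 4 and 5 had 16.5, 20.2, 18.9 and 16.6 and Cmg2-KO 3 had 0. With all libraries the log2 fold change was 3.07 ± 0.83 (SE), with an adjusted p from limma of 0.671. Without Cmg2-KO 3, left out because it was seen to be at 0, it was 3.92 (limma adjusted p = 0.0216). That p-value is only a description, and limma did not call model 618 with any other single library left out. Model 1747, on chromosome 7 and 7473 bases long, was the most abundant of the 11. It stood at 289 ± 36.5 scaled counts (WT) and 396 ± 39.2 (Cmg2-KO; SD, n = 5), with no overlap and a log2 fold change of 0.46 ± 0.11 (SE).

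On the lower side, model 1256 on chromosome 3 had 88.4, 71.6, 94.3, 83.9 and 125 scaled counts in WT 1 to 5 and 50.4, 22.8, 37.6, 27.4 and 63.4 in Cmg2-KO 1 to 5. The groups did not overlap, and the log2 fold change was -1.25 ± 0.28 (SE), with an adjusted p from limma of 0.492, and the authors' deposited table gives its adjusted p as 0.011. Less abundant models with a large difference were model 837 (chromosome 18) at 18.4 ± 10.1 for WT against 3.53 ± 4.13 for Cmg2-KO, model 1301 (chromosome 4) at 5.48 ± 2.29 and 0.815 ± 0.869, and model 1075 (chromosome 2) at 40.4 ± 34.4 and 8.72 ± 3.54 (SD, n = 5). The wide SD of model 1075 in WT comes from WT 1 at 89.4 and WT 4 at 62.7, while WT 3 at 13.3 and WT 5 at 10.5 lay in the Cmg2-KO range, which ended at 14.1.

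The 15 models with a retroviral domain lay on 9 chromosomes, and 9 were higher and 6 lower in Cmg2-KO, with a median log2 difference of 1.47 against -0.33 in the 109 other unannotated models. Those with an adjusted p under 0.05 as the authors' deposited table lists it were 4 of the 15 (5.46% of all rows), namely model 1472, model 1421 and model 1006 (higher) and model 333 (lower). Only model 954 separated the genotypes fully. Their spread within a genotype was a median SD of 1.00 log2 unit. Copies of one retroviral family can be nearly alike, and how alike these models are was not examined. The handling of reads that match several copies is not given in the sources used here, so the level of any single copy is uncertain.

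Model 1472 (chromosome 5, 98932065 to 98933404, minus strand) carries the Gag matrix and capsid domains in a single block of 1340 bases. WT 1 to 5 had 3.05, 1.04, 4.44, 1.01 and 0 scaled counts, and Cmg2-KO 1 to 5 had 121, 102, 0, 158 and 153. The model was thus near 0 in every WT library and in Cmg2-KO 3, and above 100 in the other 4 Cmg2-KO libraries. The log2 fold change was 4.34 ± 1.30 (SE), with an adjusted p from limma of 0.707, and the authors' deposited table gives its adjusted p as 0.00281. Without Cmg2-KO 3 the log2 fold change was 5.75 (limma adjusted p = 0.0051). That fit was picked because Cmg2-KO 3 was seen to be at 0, so its p-value is only a description. Limma did not call model 1472 with any other single library left out.

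The other Gag-bearing model on chromosome 5, model 1421 (95659761 to 95663859, plus strand), also has an RNase H domain and showed the same division of libraries. It had 12.2, 20.7, 2.22, 2.02 and 14.7 scaled counts in WT 1 to 5 and 197, 154, 6.27, 212 and 191 in Cmg2-KO 1 to 5. Cmg2-KO 3 was again inside the WT range. Its log2 fold change was 3.53 ± 0.98 (adjusted p by limma 0.671), and without Cmg2-KO 3 it was 4.47 ± 0.61, which still missed the threshold (adjusted p by limma 0.0791). Model 1006 (chromosome 2), with protease, capsid and RNase H domains, ranged from 10.1 to 28.4 in WT, while 4 Cmg2-KO libraries had 48.3 to 67.1, with Cmg2-KO 3 at 18.8. Model 1328 (chromosome 4; protease and Gag domains) ranged from 3.16 to 16.3 in WT, while those 4 had 36.4 to 75.6, with Cmg2-KO 3 at 4.18, and model 144 (chromosome 1; Env domain) had Cmg2-KO 3 at 10.4 against 50.4 to 141 in the others and 6.31 to 47.7 in WT. Leaving out Cmg2-KO 3 moved the log2 fold change from 1.51 to 1.82 in model 1006, from 1.59 to 2.24 in model 1328 and from 2.06 to 2.65 in model 144, with limma adjusted p-values of 0.184, 0.31 and 0.441 without that library.

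Summed over all 15 retroviral models, the scaled counts were 1300 to 3209 in WT and 1445 to 2739 in Cmg2-KO, and the genotypes overlapped. Model 153 held most of these reads. Summed over the models other than model 153, the scaled counts were 170 to 364 in WT. They were 301 in Cmg2-KO 3 and 714 to 1004 in the other 4 Cmg2-KO libraries. Without Cmg2-KO 3, 5 of the 15 models were higher in every Cmg2-KO library than in any WT library, where 15.6% of all rows were so separated, and 0 were with it; the count of 9 higher models was the same. Cmg2-KO 3 was not apart in all of them. Model 970 (chromosome 2), with integrase, reverse transcriptase and envelope domains, had 165, 279, 195, 152 and 419 scaled counts in Cmg2-KO 1 to 5 and 51.6 to 75.7 in 4 WT libraries, with WT 5 at 215. Model 502 (chromosome 13; protease and Gag) had 14.1 to 29.1 in 4 Cmg2-KO libraries and 1.89 in Cmg2-KO 4, against 0 to 2.22 in 4 WT libraries and 16.8 in WT 5. Model 659 (chromosome 15; a Gag p10 domain) ranged between 0 and 8.30 in WT and between 2.09 and 33.4 in Cmg2-KO.

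The lower retroviral models had other library patterns. Model 333 (chromosome 11, 30513442 to 30521972; protease and capsid domains) had 91.4, 19.7, 25.5, 22.2 and 2.10 scaled counts in WT 1 to 5 and 2.61, 0.879, 1.04, 10.4 and 1.04 in Cmg2-KO 1 to 5, so that WT 5 lay in the Cmg2-KO range. The matrix-domain copy, model 954, (chromosome 2) stood at 21.3, 14.5, 13.3, 6.07 and 6.31 in WT and at 2.61, 0.879, 1.04, 4.73 and 0 in Cmg2-KO; it had no overlap and a log2 fold change of -2.33 ± 0.52 (SE), with an adjusted p from limma of 0.491. Another matrix-domain model, model 206 (chromosome 1), had 14.2, 4.15, 4.44, 4.04 and 0 in WT and was at 0 in all 5 Cmg2-KO libraries. The Env-bearing copies, model 461 (chromosome 12) and model 1371 (chromosome 4) were at 52.9 ± 35.6 and 24.3 ± 11.2 (WT), against 20.2 ± 13.3 and 13.0 ± 3.63 (Cmg2-KO; SD, n = 5), overlapping between genotypes.

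Model 153 (chromosome 1, 84512852 to 84517905, minus strand), a single block of 5054 bases with Gag, RNase H and integrase domains, was the only retroviral model with a mean over 1000 scaled counts. It ranged between 1018 and 2845 in WT and between 884 and 1890.5 in Cmg2-KO, and the groups overlapped widely. The log2 fold change was -0.50 ± 0.29 (SE), with an adjusted p from limma of 1. The last of the 15, model 2030 on the Y chromosome, carries an RNase H domain, which cellular enzymes also have. It was at 0 in every WT library and at 10.4 in Cmg2-KO 4, with 0 to 1.76 in the other Cmg2-KO libraries.

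**Figure D2:**
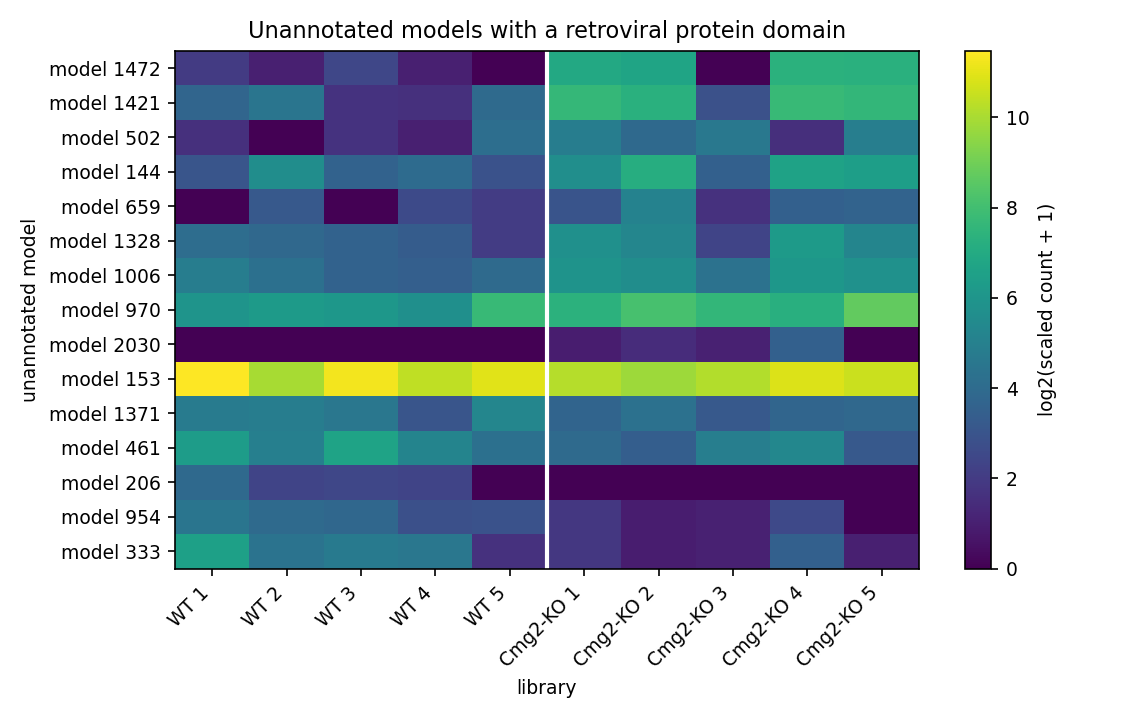
Level of the 15 unannotated models with a retroviral protein domain in each of the 10 libraries, as log2(scaled count + 1) by colour, ordered by the difference between Cmg2-KO and WT. The white line parts WT from Cmg2-KO. The upper rows are bright in Cmg2-KO 1, 2, 4 and 5 and dark in Cmg2-KO 3 for model 1472, model 1421 and model 1328.

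The V-set domain is the fold of the variable region of antibodies and T cell receptors, and the 7 models that carry it were short (388 to 754 bases). On chromosome 6, where the listed immunoglobulin heavy chain gene Ighg1 also lies, model 1619 and model 1618 were higher in Cmg2-KO, at 15.7 ± 6.98 and 15.6 ± 15.6 scaled counts (WT), against 47.6 ± 34.4 and 61.2 ± 41.1 (Cmg2-KO; SD, n = 5). Model 1315 on chromosome 4 stood at 115 ± 63.5 and 244 ± 134, and model 355 on chromosome 11 at 2.46 ± 2.65 and 11.4 ± 9.50. These 4 overlapped between the genotypes. The listed B and plasma cell markers Jchain and Mzb1 were also higher in Cmg2-KO, with log2 fold changes of 0.67 ± 0.23 and 0.43 ± 0.14 (SE); their summed level was 1924 to 4464 in WT and 3601 to 6656 in Cmg2-KO, and the part of B and plasma cells in these differences was not tested. In bulk tissue, more cells of a type and more RNA per cell cannot be told apart.

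The other 3 V-set models were lower. Model 1635 (chromosome 6, 142128743 to 142129249) had 35.6, 64.3, 33.3, 35.4 and 29.4 scaled counts in WT 1 to 5 and 2.61, 13.2, 8.35, 14.2 and 0 in Cmg2-KO 1 to 5. The genotypes did not overlap, and the log2 fold change was -2.72 ± 0.69 (SE), with an adjusted p from limma of 0.654, and the authors' deposited table gives its adjusted p as 0.00999. Model 1297 on chromosome 4 was at 32.2 to 38.6 in WT and 9.36 to 31.3 in Cmg2-KO. Model 1564 on chromosome 6 had reads in WT 2, 3 and 5 only, at 4.15, 9.99 and 16.8.

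The 17 models with another domain gave 7 higher and 10 lower. Of 3 sparse models among the lower ones, model 1784 (semaphorin domain) stood at 12.3 ± 10.8 (WT) and 1.39 ± 1.18 (Cmg2-KO), with WT 4 and WT 5 in the Cmg2-KO range, while model 235 (E1-E2 ATPase domain; 4.61 ± 0.67 and 1.10 ± 0.96) and model 625 (PCI domain; 7.72 ± 1.71 and 3.10 ± 1.83) separated the genotypes (SD, n = 5). At higher levels, model 250 (ribosomal protein L19e domain) stood at 168 ± 28.8 for WT against 120 ± 12.1 for Cmg2-KO, model 86 (scavenger receptor cysteine-rich domain) at 62.7 ± 26.8 and 26.7 ± 12.9, and model 214 (DDE superfamily endonuclease domain) at 87.9 ± 10.1 and 63.4 ± 6.91 (SD, n = 5). Model 1462, with the C-terminal domain of RIG-I, a cytosolic sensor of viral RNA, was at 359 ± 47.1 and 417 ± 27.8. Of the 4 at higher levels only model 214 separated the genotypes. Of the 85 models with no domain, 39 were higher and 46 lower, and 22 of the 85 separated the genotypes (16.3% of all rows), 15 of them higher (9.25% of all rows). The models of the group with another domain were chosen for mention after their values were seen.

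A model was counted as present in a library from 3 scaled counts, about 3 reads. By that measure 35 of the 124 models (28.2%) were present in some libraries only, against 8.01% of named genes and 31.1% of rows with provisional names, and the other 89 were present in all 10. At a mean level of 20 to 100 scaled counts this was so for 6 of 43 models and 1 of 178 named genes (0.562%), and at 5 to 20 for 51.5% and 55.7%. A count of 0 allows up to 3 reads, and 24 of the 35 did not reach 30 scaled counts in any library; the part of low level in the count of 35 was not tested.

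Of the 35, 17 were present in more Cmg2-KO libraries and 18 in more WT libraries. Of all 1319 rows, 177 were present in some libraries only, 71 of them in more Cmg2-KO libraries and 100 in more WT libraries. The patterns that follow were counted for the models only. There were 7 models below the limit in every WT library and present in some Cmg2-KO libraries, and 5 the other way round. Presence in 1 or 2 libraries of a genotype was seen at model 1986 on the X chromosome, which had 42.6 scaled counts in Cmg2-KO 5, 8.51 in Cmg2-KO 4 and at most 2.64 elsewhere. It was seen again at model 1957 on an unplaced scaffold, with 21.1 in Cmg2-KO 2, 31.2 in Cmg2-KO 4 and at most 2.61 elsewhere. These were chosen after their values were seen. In model 48 on chromosome 1, Cmg2-KO 1 and Cmg2-KO 3 had 68.7 and 70.0 scaled counts, while the other 3 Cmg2-KO libraries (7.91 to 9.45) lay inside the WT range of 2.22 to 12.1.

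**Figure D3:**
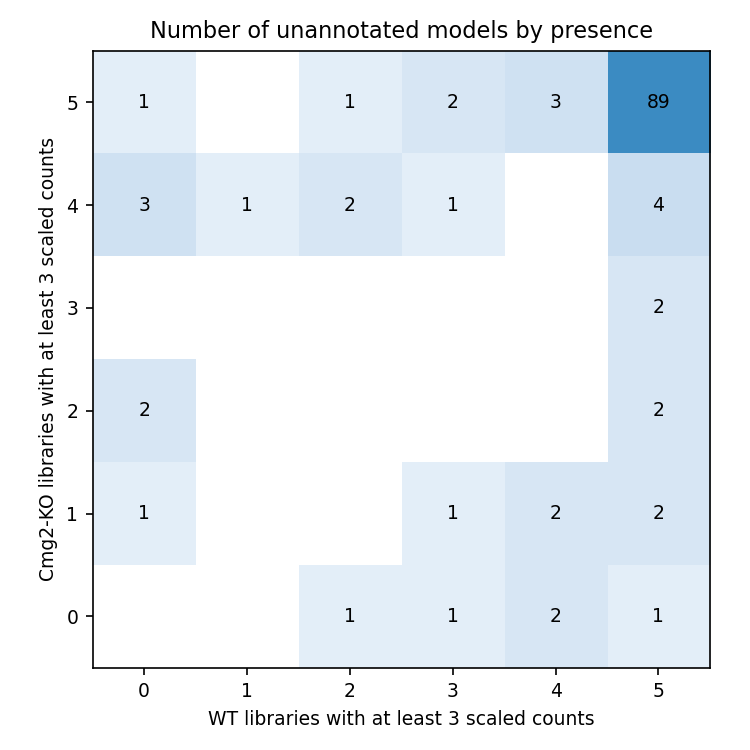
Number of unannotated models by the number of WT libraries (horizontal) and Cmg2-KO libraries (vertical) in which they had at least 3 scaled counts. The 89 models present in all 10 libraries are at the upper right, and the other 35 lie outside that corner.

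The library that broke the pattern differed between models. In 17 models exactly 4 Cmg2-KO libraries lay above all WT libraries, and the exception was Cmg2-KO 3 in 10 of them, Cmg2-KO 2 and Cmg2-KO 5 in 3 each, Cmg2-KO 1 in 1 and Cmg2-KO 4 in 0. The 10 were 5 retroviral models (model 1472, model 1421, model 1006, model 144 and model 1328) and 5 others. In the 17 models with exactly 4 Cmg2-KO libraries below all WT libraries, Cmg2-KO 4 was the exception in 6. In the 28 models with exactly 4 WT libraries above all Cmg2-KO libraries, WT 5 was the exception in 9. Without Cmg2-KO 3 the genotypes were separated in 25 models higher and 17 lower, against 15.6% and 10.3% of all rows. Without Cmg2-KO 4 they were separated in 15 higher and 20 lower, against 11.8% and 12.6% of all rows. With all libraries it was 15 higher and 14 lower, against 9.25% and 7.05% of all rows. The rise in higher rows without Cmg2-KO 3 was thus also seen over the whole table. The counts of exceptions were made for the models only, so they do not set the models apart from other rows.

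Named genes of the table, meaning those with a symbol that is not provisional, were used to place the models. The coordinates are those of the authors' table, whose genome build is not given in the sources used here. Since only genes selected for this contrast are listed, the nearest listed gene need not be the nearest gene of the genome. The median distance to the nearest named gene was 667 kb, against 477 kb from a named gene to the nearest other one. Within 10 kb there were 8 models (6.45%) and 63 named genes (6.31%), and 3 models had no named gene on their chromosome or scaffold. The nearest named gene was listed on the same strand for 59 models and on the opposite strand for 62. Nothing in the labels says that the libraries kept strand, so the strands of unspliced models, and counts by strand, are uncertain.

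**Figure D4:**
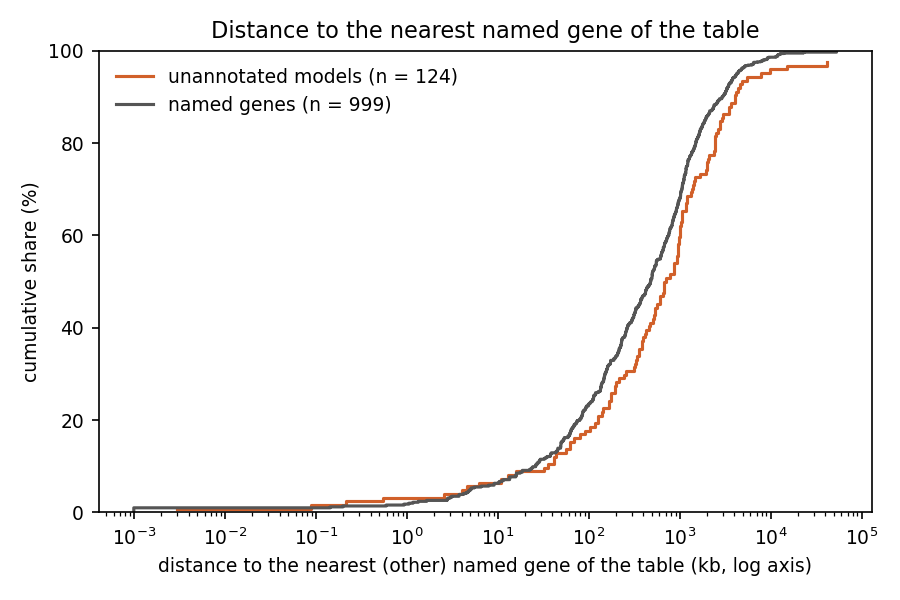
Cumulative share of the 124 unannotated models (orange) and of the 999 named genes (grey) by distance to the nearest (other) named gene of the table, in kb on a log axis; overlaps are drawn at 1 base. The curves meet near 10 kb, and the models reach each higher share at larger distances.

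Of the 8 pairs within 10 kb, 6 had the same sign of difference, 4 of the 5 on the same strand and 2 of the 3 on opposite strands. Within 50 kb it was 12 of 16, and within 1000 kb 45 of 76. Both members of each pair were selected for the same contrast in the same libraries, so these counts are descriptions. In none of the pairs below did either member pass limma's adjusted threshold.

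The nearest pair was model 1238 and Dll4, a Notch ligand of sprouting endothelium. On chromosome 3 the model (111129378 to 111135018, minus strand) starts 3 bases from the start of Dll4 (111135021 to 111145986, plus strand), so the pair lies head to head. Model 1238 had 371, 315, 417, 390 and 358 scaled counts in WT 1 to 5 and 385, 407, 467, 407 and 491 in Cmg2-KO 1 to 5, which overlap. The log2 fold changes were 0.22 ± 0.10 for the model and 0.25 ± 0.10 for Dll4 (SE). Per kb the model had 187 scaled counts and Dll4 637.

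Model 1022 (chromosome 2, 56489504 to 56494000, minus strand), a single block of 4497 bases, had the most reads of all 124 models. It lies 89 bases beyond the end of Lifr (56426367 to 56489415, plus strand), the receptor for leukaemia inhibitory factor, and by the listed strands faces it tail to tail. The model is unspliced and nothing in the labels says that the libraries kept strand, so its strand is uncertain. Scaled counts were 6400.3, 7829, 8091, 6757 and 8913 in WT 1 to 5 and 6535, 6511, 6987, 5856 and 6838 in Cmg2-KO 1 to 5. The log2 fold changes were -0.21 ± 0.09 for the model and -0.34 ± 0.09 for Lifr (SE), and the levels per kb were 1573 and 1163 scaled counts. The model and the gene do not overlap in the table's coordinates.

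In 2 pairs on the same strand the model ended just before the start of the named gene. Model 1485 (chromosome 5, 137373206 to 137375554, minus strand) ends 213 bases before Tmem125 (137370577 to 137372993, minus strand), which encodes a transmembrane protein. The model stood at 65.0 ± 11.3 scaled counts for WT against 47.0 ± 3.76 for Cmg2-KO and the gene at 59.4 ± 5.22 and 42.8 ± 7.04 (SD, n = 5), with log2 fold changes of -0.45 ± 0.17 and -0.48 ± 0.16 (SE). In model 1485 the exception was WT 5 at 47.3, inside the Cmg2-KO range of 41.6 to 51.8. By the table's coordinates the model ends within the 250 bases before the gene's start. RefSeq's window of that kind for Tmem125 is, in build GRCr8, chr5:137348295-137348594, plus strand, with 50 bases after the start. Capitals mark the single CCAAT match found on either strand.

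Tmem125 promoter: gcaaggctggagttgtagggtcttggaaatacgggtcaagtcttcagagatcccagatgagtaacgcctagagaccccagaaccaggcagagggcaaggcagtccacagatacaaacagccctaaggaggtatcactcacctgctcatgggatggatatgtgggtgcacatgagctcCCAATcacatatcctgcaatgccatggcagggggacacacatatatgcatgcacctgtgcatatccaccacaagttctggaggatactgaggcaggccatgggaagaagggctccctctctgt

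The window holds 2 CG dinucleotides, where the median RefSeq promoter of rat holds 7, and no match on either strand to the TATA box (TATAAA), which 14.2% of 33465 promoters of this length hold. The CCAAT box is held by 37.5% of them. The GC box (GGGCGG), held by 33.1%, was not matched either. Nor was the E-box (CACGTG), held by 6.42%. RefSeq's build differs from the coordinates of the table, where the gene is on the minus strand, and whether both use the same start was not checked.

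Model 1198 (chromosome 3, 147503974 to 147510853, plus strand) ends 553 bases before Slc52a3, a riboflavin transporter gene. It had 52.8, 56.0, 59.9, 50.6 and 57.8 scaled counts in WT 1 to 5 and 31.3, 35.1, 41.8, 34.0 and 48.9 in Cmg2-KO 1 to 5, with no overlap. The gene stood at 198 ± 23.6 and 140 ± 9.35 (SD, n = 5), also with no overlap, and the authors' deposited table lists its adjusted p as 0.0172 and that of the model as 0.346. The log2 fold changes were -0.54 ± 0.17 for the model and -0.48 ± 0.11 for Slc52a3 (SE).

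Further pairs of the same sign, all lower in Cmg2-KO, were model 1744 with the potassium channel gene Kcnj4, model 1371 with the acetyltransferase-family gene Nat8f5, model 1103 with the small GTPase gene Rab36 and model 534 with the adhesion molecule gene Cadm3. In the first, the model lies 2565 bases beyond the end of the gene on the same strand and both peaked in WT 2, at 40.4 and 282 scaled counts. Model 1103 (53.6 to 89.2 in WT, 33.4 to 48.2 in Cmg2-KO) and model 534 (89.9 to 106 and 53.0 to 87.7) separated the genotypes, at 10.9 kb and 13.1 kb from Rab36 and Cadm3. Model 1103 carries the Bcr-Abl oligomerisation domain.

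Opposite signs were found in 2 pairs within 10 kb. Model 912 (chromosome 19, adaptin C-terminal domain) lies 4066 bases before Phlpp2, a phosphatase gene acting on AKT, and stood at 731 ± 69.1 scaled counts for WT against 833 ± 44.2 for Cmg2-KO, while Phlpp2 stood at 234 ± 21.1 and 198 ± 24.1 (SD, n = 5). Model 1328, the retroviral model above and also unspliced, faces Wnt5b, a Wnt ligand gene, tail to tail by the listed strands, at 4592 bases. The log2 fold change of the model was 1.59 ± 0.69 and that of Wnt5b -0.55 ± 0.24 (SE).

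**Figure D5:**
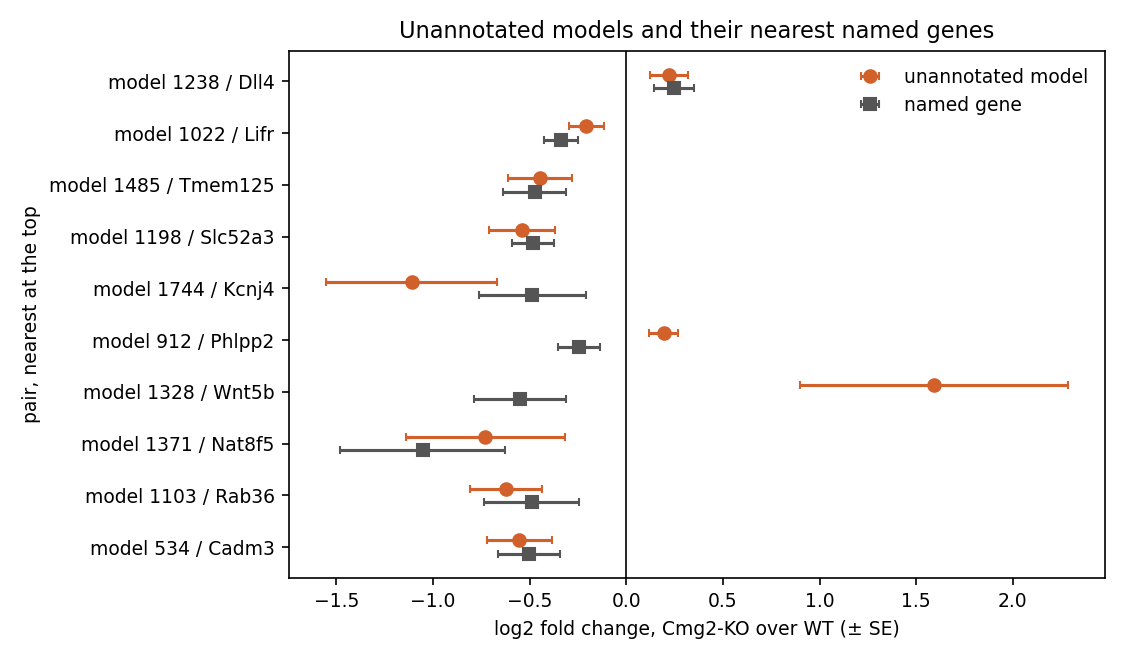
Log2 fold change (Cmg2-KO over WT, ± SE from limma) of the 10 unannotated models nearest to a named gene (orange circles) and of those genes (grey squares), nearest pair at the top. Both lie on the same side of 0 in 8 pairs, and on opposite sides for model 912 with Phlpp2 and model 1328 with Wnt5b.

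Models rarely adjoined each other: apart from model 880 and model 904, only model 1004 and model 1005 on chromosome 2 lay within 10 kb, 2795 bases apart on the same strand. They shared a library pattern, with WT 1 low in both (15.2 and 36.6 scaled counts) against 61.7 to 99.6 and 109 to 144 in WT 2 to 4. WT 5 was low in model 1004 only, at 21.0 against 117 in model 1005.

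After model 1022, the models with the most reads were model 1589, model 517, model 153 and model 1813. Model 1589 on chromosome 6 ranged between 2785 and 4038 scaled counts in WT and between 1744 and 3696 in Cmg2-KO. Model 517 on chromosome 13, of 410 bases, had the highest level per kb of the 5, at 5707 scaled counts, and ranged between 1758 and 2465 in WT and between 2397 and 2671 in Cmg2-KO. Its log2 fold change was 0.23 ± 0.08 (SE), with an adjusted p from limma of 0.807. Model 1813 on chromosome 8 stood at 1428 ± 214 and 1741 ± 231 (SD, n = 5). All 5 overlapped between the genotypes, and none passed limma's adjusted threshold.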

How the data were processed

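The single deposited table was used. The authors deposited scaled counts (a signal) for 10 libraries. As the values show, each library was divided by its own size factor: 100% were whole multiples of 1 read within a tolerance of 0.02 reads. The table also holds the authors' log2 fold change, fold (ratio), p-values and gene coordinates, per the file headers. HISAT2 2.0.5 and featureCounts 1.5.0-p3 are named in the submitters' processing notes; the build, the assembler of the unannotated models, strand setting and test were not found in the labels or headers and are not given. Libraries were made from total RNA with the NEBNext Ultra kit, per the labels' protocols.

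Limma 3.58.1 (trend, robust; R 4.3.3) was fitted to log2(scaled count + 1) of all rows above 0.5 in at least 5 libraries, with Benjamini-Hochberg adjustment over the 19894 genes that the authors' adjusted p-values imply (1233 rows matched; 6 rows listed at 1 cannot come from it). The fit was tested on simulated counts with the same dispersion for all rows and no library set apart from its genotype. That test therefore does not cover models with a wider spread or a single deviating library. edgeR 4.0.16 and DESeq2 1.42.0 were run on whole reads of the 9 libraries other than WT 4. WT 4 was set aside by name and not by a test. In it 1 read was worth 1.01 scaled counts, against 1.02 in WT 1, which was kept. Other settings varied the pseudocount, filter, scaling, variance model, replicate block, library left out, presence limit and distance. Models named were those past an adjusted p of 0.05 (limma or the authors'), the 6 largest fold changes in each direction among those with a mean of at least 5 scaled counts in the higher genotype and at least 4 of 5 libraries of a genotype beyond all 5 of the other, the 5 with most reads, the 10 nearest a named gene and 8 present in some libraries only; members of the domain groups were added after their values were seen. The members and lists were chosen with earlier results of these data known. The values of 1 model named by this rule, of the group with another domain and among the 11 that the authors' deposited table calls, are not reported here.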

Additional observations from a re-analysis of the deposited data

Results flagged for a closer look

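In 32 models named by rule, a library is given here if, on the log2 scale, its gap to the nearest of the other 4 of its genotype exceeded 0.71 of the range of all 5. That held in 9 of 64 groups. Chance gives about 1 in 20 among unselected groups, but these models were chosen in part for large differences and for presence in some libraries only, so the count is a description. Cmg2-KO 3 was the library in 5 of them: it had 0 scaled counts of model 1472 (others 102 to 158), 6.27 of model 1421 (others 154 to 212), 18.8 of model 1006 (others 48.3 to 67.1), 0 of model 618 (others 16.5 to 20.2) and 4.18 of model 1328 (others 36.4 to 75.6). Cmg2-KO 4 had 9.45 of model 1057 (others 79.1 to 115). In WT, WT 2 had 64.3 of model 1635 (others 29.4 to 35.6) and 2.07 of model 618 (others at 0), and WT 3 had 2.22 of model 48 (others 8.13 to 12.1).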

How the results depend on the processing

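The direction of all 32 models named by rule was the same under every alternative that gave a value, 539 values in all, and 8 of these crossed the adjusted threshold. Rows of the whole table past limma's adjusted threshold numbered 3, and 0 with the replicate block, 1 with edgeR, 51 with DESeq2 and 1 to 6 with a library left out. Models past it numbered 0, and 1 without limma's trend and robust options, 4 with DESeq2 and 0 to 2 with a library left out; the 2 came without Cmg2-KO 3. With the replicate block the models past it also numbered 0. Libraries with the same replicate number correlated at -0.02 to 0.09 in their deviations from the genotype means. For numbers 1, 2 and 4 the Cmg2-KO library of the same number was the one that correlated most with the WT library. The correlations were low and the labels name no pairs, so the numbers were not taken as pairs, though a pairing is not excluded. Models within reach of a named gene numbered 8 at 10 kb, 4 at 1 kb and 16 at 50 kb, and pairs of the same sign 6, 4 and 12. The total of separated models (30 to 42) and that of partly present models (26 to 40) stayed within 1.5 times those reported, but separated models that were higher went from 15 to 25 without Cmg2-KO 3, and retroviral ones from 0 to 5. Over all rows the share separated and higher went from 9.25% to 15.6% without Cmg2-KO 3. Leaving out libraries for the retroviral models was an alternative chosen after seeing the data. The fits without Cmg2-KO 3 or Cmg2-KO 4 given for single models were also picked after seeing which library was low.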
